A study of Homo sapiens with 6 samples.

Results

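The lysosome is the acidic organelle in which cells break down proteins, lipids, glycogen and other polymers, and 36 genes that encode its enzymes, its membrane proteins, its proton pump and the transcription factors that control them were followed in serum-starved ovarian cancer cells. The genes were chosen by name for their function and not by their measured values, though earlier results of these data were known. All 36 were present among the 58735 gene rows of the count table. They comprised 3 transcription factors, 17 hydrolases and hydrolase partners, 5 membrane proteins and 11 proteins of the vacuolar-type ATPase. The cells were Ovcar8, a line established from a human ovarian cancer and labelled high grade serous. One group of 3 libraries had 5% fetal bovine serum (FBS) in its RPMI-1640 medium, and the other group of 3 had none for the same 48 h, here called serum starved. The groups shared the cell line, and the labels name no other agent. Separate cultures are not stated for the libraries of a group, so each p-value measures the spread among libraries, which may be technical. Bulk RNA cannot tell fewer expressing cells from less RNA per cell, and CPM (counts scaled to the library size, with TMM factors between libraries) give shares of the sequenced RNA, not amounts per cell.

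Lysosomal enzymes are made as precursors, tagged with mannose 6-phosphate in the Golgi and carried to an organelle that the vacuolar-type ATPase acidifies. In that pump the V1 sector in the cytosol hydrolyses ATP, and its rotation drives protons through the V0 sector in the membrane. TFEB, TFE3 and MITF are related transcription factors that bind E-box sequences before many of these genes. In well-fed cells the kinase complex mTORC1, itself seated on the lysosome, keeps TFEB and TFE3 phosphorylated in the cytoplasm, and on nutrient loss they enter the nucleus. Phosphorylation and location of proteins were not measured here.

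The libraries held 16379416 to 19558484 counts assigned to genes. Libraries of one group differed in a trend with transcript GC content. The genes of lowest GC content (the bottom decile) lay at a median of 0.81 on the log2 scale above their mean over the 6 libraries in FBS replicate 1 and at -0.72 in serum-starved replicate 1. Within the starved group the same genes lay at 0.31 in replicate 3, so the trend ran in opposite directions in replicates 1 and 3. Starved replicate 3 also stood apart by gene length, with the shortest genes at -0.53 and the longest at 0.48, against 0.10 to 0.23 for the shortest genes in the other libraries. The epithelial markers were mixed. The keratins KRT7, KRT8 and KRT18 were at 149 to 410, 620 to 1037 and 553 to 1192 FPKM (the authors' deposited level per gene length), and the Müllerian factor PAX8 was at 7.86 to 11.3 FPKM. KRT19 had 5 counts in all, EPCAM was at 0.396 to 1.51 FPKM, CDH1 at 0.0518 to 0.118, WT1 at 0.178 to 0.636 and FOLR1 at 1.46 to 6.74, and SOX17 and MUC16 had 0 counts in all 6 libraries. Of the markers of other cells, the summed level of the leukocyte list was 0.761 to 1.5 FPKM with FBS and 0.724 to 1.29 FPKM in starved libraries, with CD3E at 0. The fibroblast list summed to 31.2 to 57.6 FPKM with FBS and 75.6 to 82.4 FPKM in starved libraries, nearly all of it COL1A1, while DCN was at 0.

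None of the 36 lysosomal genes passed the test for a difference between starved and FBS libraries (edgeR quasi-likelihood, adjusted p under 0.05), against 39 of the 13772 genes tested, or 0.283% of them. All 36 genes had enough counts to be tested. The fold change was above 0 for 18 genes and below 0 for 18, and its median over the 36 was 0.0016 on the log2 scale, against -0.02 over all genes tested, of which 48.5% were above 0. The adjusted p of the 36 ran from 0.178 for TPP1 to 0.997 for HEXA. For 27 genes the log2 fold change was under 0.5 in size, and for 22 of the 36 the whole 95% confidence interval lay within a 2-fold change in either direction. The remaining intervals reached beyond a 2-fold change, so for those genes a difference of that size was not excluded.

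At an adjusted p under 0.1 the count was 0 as well, against 0.508% of all genes tested. At an unadjusted p under 0.05 there were 3 of the 36 genes (8.33%), against 10.4% of all genes tested. TPP1 and ATP6V0A1 were higher (6.01% of all genes) and ATP6V0B was lower (4.37% of all genes) in starved cells. The 3 starved values lay entirely above or below the 3 FBS values for 6 genes (16.7%), against 17.7% of all genes tested. These were TPP1, GUSB and CLCN7 on the higher side (10% of all genes) and GLA, ATP6V0B and ATP6V1E1 on the lower side (7.65% of all genes). Both shares were near those of all genes. The genes without overlap depended on the scaling. When each library was corrected for GC content and length there were 10 (27.8%, against 22% of all genes tested), 5 higher and 5 lower. TPP1, GUSB and ATP6V0B were among them, CLCN7, GLA and ATP6V1E1 were not, and GAA, LAMP2, ATP6V1C1, CTSL, ASAH1, MCOLN1 and ATP6V1A were added. With total counts only there were 9 (25%, against 17.1%), 5 higher and 4 lower. Other tools run on the same counts called 1 member (DESeq2, TPP1; 1.48% of the genes it tested) and 0 members (limma-voom; 0.276%).

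**Figure D1:**
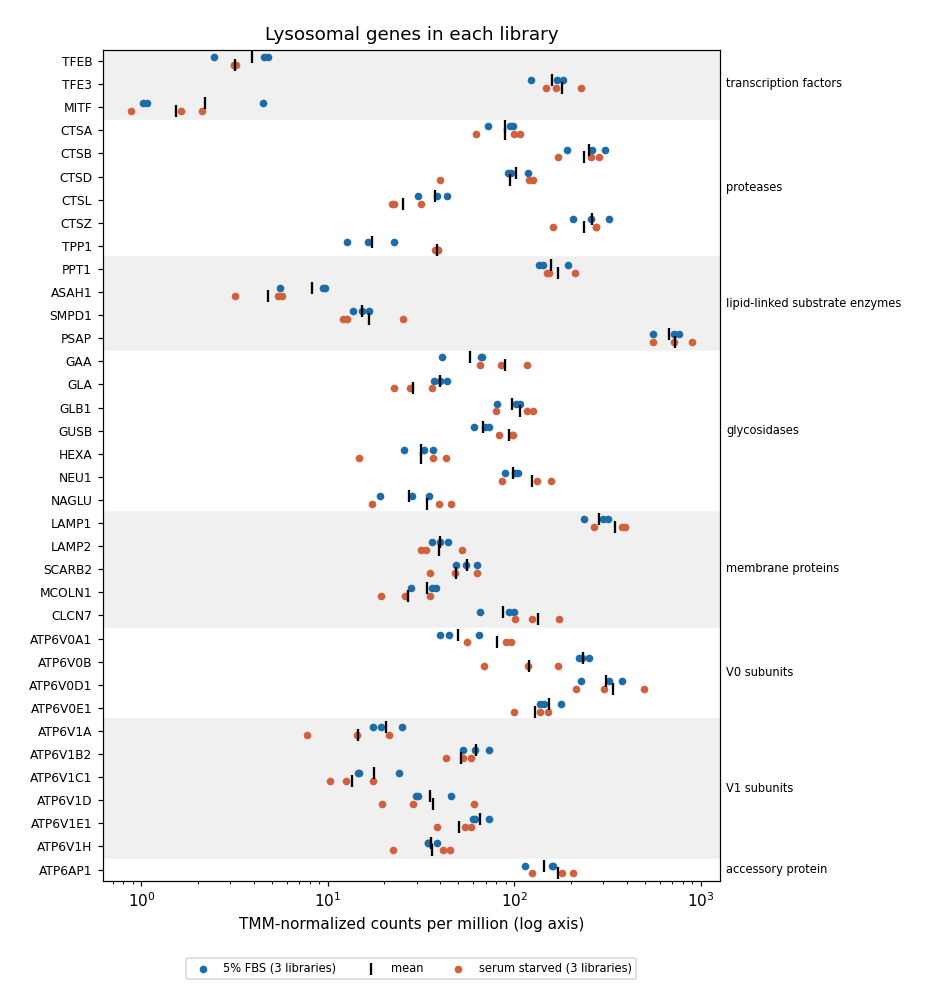
TMM-normalized CPM on a log axis for each of the 36 lysosomal genes, with 1 point per library (blue with 5% FBS, orange serum starved) and a bar at each group's mean over 3 libraries. The 2 groups overlap for 30 of the 36 genes, and the starved points of TPP1 lie above and those of ATP6V0B below all FBS points.

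**Figure D2:**
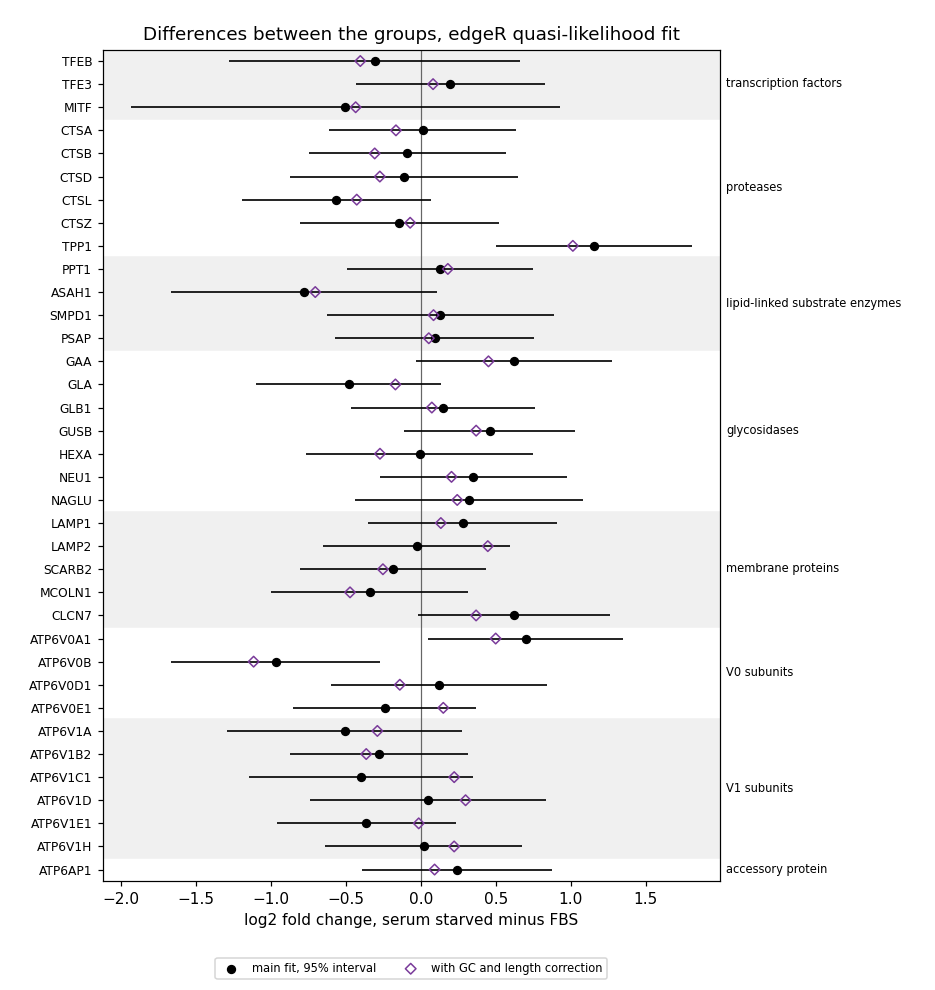
Log2 fold change (serum starved minus FBS) of the 36 genes from the edgeR fit with its 95% confidence interval (black) and the value after a correction of each library for GC content and gene length (open diamonds). The estimates lie on both sides of 0 in most functional groups, from -0.97 for ATP6V0B to 1.15 for TPP1.

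Of the 3 transcription factors, TFE3 was the abundant one and none differed between the groups beyond the spread of the libraries. TFEB, the best known activator of lysosomal genes, was at 2.44, 4.77 and 4.55 CPM in FBS replicates 1, 2 and 3 and at 3.13, 3.13 and 3.21 CPM in the starved replicates in the same order. The starved values were close together and lay within the range of the FBS values. Its means were 3.92 ± 1.29 CPM with FBS and 3.16 ± 0.0502 CPM starved (SD, n = 3 each), a log2 fold change of -0.31 (SE 0.46; 95% interval -1.28 to 0.66; edgeR adjusted p = 0.871). TFE3 was at 123, 181 and 169.96 CPM with FBS and 229, 167 and 148 CPM in starved libraries. Its groups overlapped, with the highest value in starved replicate 1 and the lowest in FBS replicate 1, and its log2 fold change was 0.19 (SE 0.30; edgeR adjusted p = 0.874). MITF, the melanocyte member of the family, was at 1.02, 1.07 and 4.48 CPM with FBS and 2.11, 0.878 and 1.63 CPM in starved libraries. A single library, FBS replicate 3, set its FBS mean apart, and the log2 fold change was -0.50 (SE 0.68; edgeR adjusted p = 0.85). Per length, TFE3 averaged 38.6 FPKM over the 6 libraries, TFEB 0.612 and MITF 0.254, so TFE3 was 6th and the other factors 34th and last of the 36.

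Because the RNA of the factors does not report their activity, the sequences before the member genes were searched for the E-box CACGTG, its extended form TCACGTGA, and the longest form, in which a G stands before and a C after TCACGTGA. These are sites of the coordinated lysosomal expression and regulation (CLEAR) type. Each motif reads the same on both strands, and each longer one contains the shorter. RefSeq windows of 300 bases (250 before and 50 after a gene's start, GRCh38.p14) were at hand for 25 of the 36 genes. CACGTG was in 9 of the 25 (36%), against 8.77% of the 27305 genes with a window. TCACGTGA was in 5 (20%), against 1.18%, and the longest form was in 2 (8.0%), against 0.421%. The 9 genes were ATP6V0B, ATP6V0D1, CLCN7, CTSA, CTSD, GAA, LAMP1, MCOLN1 and NEU1. A match is a description of letters and not a bound site. CLEAR-type sites are known from lysosomal genes, so the higher shares among members are not new evidence. The windows of all genes were not matched to those of the members for GC content. It was 63.7% (NEU1) to 81.3% (GAA) in the 9 windows with CACGTG.

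The stretches that hold these matches are given 5′ to 3′ on the gene's own strand, from GRCh38.p14 as given by RefSeq, cut before the gene's start, with CACGTG in capitals. They are given because TFEB-family factors are known to act on lysosomal genes through sites of this type. Whether the copies shown are bound or active was not tested. GAA and MCOLN1 carry the longest form, and LAMP1 carries 5 copies before its start. A further LAMP1 copy spans the start and is cut from the stretch shown. TPP1, the gene with the smallest p, is shown as a member whose window has no CACGTG. Related E-boxes such as CATGTG were not searched for, and the TPP1 stretch holds that sequence.
GAA (chr17:80101490-80101570, plus strand): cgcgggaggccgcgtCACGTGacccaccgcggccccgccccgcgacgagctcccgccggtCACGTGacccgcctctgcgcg
MCOLN1 (chr19:7522568-7522623, plus strand): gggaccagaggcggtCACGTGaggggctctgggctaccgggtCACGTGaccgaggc
LAMP1 (chr13:113297032-113297238, plus strand): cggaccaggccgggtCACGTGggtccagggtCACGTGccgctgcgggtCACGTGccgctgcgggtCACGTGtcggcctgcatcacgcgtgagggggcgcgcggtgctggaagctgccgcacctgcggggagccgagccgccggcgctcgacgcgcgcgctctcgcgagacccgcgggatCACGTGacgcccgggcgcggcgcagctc
CTSA (chr20:45891278-45891330, plus strand): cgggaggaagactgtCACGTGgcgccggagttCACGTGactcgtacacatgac
ATP6V0D1 (chr16:67481196-67481231, minus strand): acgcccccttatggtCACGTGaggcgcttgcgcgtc
CLCN7 (chr16:1475035-1475090, minus strand): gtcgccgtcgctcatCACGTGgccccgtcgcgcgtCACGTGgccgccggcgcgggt
ATP6V0B (chr1:43974888-43974941, plus strand): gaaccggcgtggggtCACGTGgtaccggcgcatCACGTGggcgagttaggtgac
CTSD (chr11:1763954-1763989, minus strand): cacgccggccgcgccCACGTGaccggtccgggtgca
NEU1 (chr6:31862927-31862962, minus strand): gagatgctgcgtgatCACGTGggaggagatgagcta
TPP1 (chr11:6619423-6619522, minus strand): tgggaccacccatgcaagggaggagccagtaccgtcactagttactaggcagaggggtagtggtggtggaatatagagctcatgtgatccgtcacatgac

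The 9 genes with CACGTG did not pass the test either. Their log2 fold changes were above 0 for 6 and below 0 for 3, with a median of 0.12 and a range from -0.97 (ATP6V0B) to 0.62 (CLCN7). The 16 genes with a window and no CACGTG were above 0 for 9 and below 0 for 7, with a median of 0.09 and a range from -0.56 to 1.15. The 11 genes without a window were above 0 for 3 and below 0 for 8, with a median of -0.09. The sets differed in median transcript GC content, at 58.9% with CACGTG, 50.7% without it and 46.3% without a window. The part of GC content in these medians was not tested. The genes with the longest form differed in direction, GAA at 0.62 and MCOLN1 at -0.34 on the log2 scale.

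Among the 6 proteases, 2 were above 0 and 4 below, with a median log2 fold change of -0.10, and TPP1 stood at the high end. TPP1 (ENSG00000166340, chr11:6612763-6619485 in GRCh38), the peptidase that removes tripeptides from the ends of proteins, was at 12.7, 16.5 and 22.6 CPM in the 3 FBS libraries and at 38.8, 39 and 37.3 CPM in the 3 starved libraries. Every starved library was above every FBS library, and the starved values lay close together. The mean was 17.3 ± 4.97 CPM with FBS and 38.4 ± 0.917 CPM starved, a fold of 2.23 and a log2 fold change of 1.15 (SE 0.31; 95% interval 0.50 to 1.81; edgeR adjusted p = 0.178). The call depended on the tool and on 1 library. TPP1 passed in DESeq2 (adjusted p = 0.0245, among 1.48% of the genes it tested) and in edgeR without serum-starved replicate 3 (adjusted p = 0.0354, among 1.81%), with log2 fold changes of 1.16 and 1.17.

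The cathepsins, the main lysosomal proteases, were mixed. CTSL, a cysteine protease, was at 43.2, 38.7 and 30.3 CPM with FBS and 22.5, 31.4 and 22 CPM in starved libraries. Its groups overlapped through a single pair of libraries, FBS replicate 3 and starved replicate 2, and its log2 fold change was -0.56 (SE 0.30; edgeR adjusted p = 0.536). CTSB, another cysteine protease and 1 of the more abundant members, was at 191, 306 and 259.7 CPM with FBS and 256, 284 and 171 CPM in starved libraries, with a log2 fold change of -0.09 (SE 0.31). CTSD, the aspartic protease, was at 96.2, 119 and 92.7 CPM with FBS and 125, 119 and 39.8 CPM in starved libraries, where replicate 3 was the lowest of all 6. Its log2 fold change was -0.12 (SE 0.36; edgeR adjusted p = 0.942). CTSZ, a carboxypeptidase, had a log2 fold change of -0.14, and CTSA, the protective protein that stabilises NEU1 and GLB1, had one of 0.01. Exons of CTSA overlap those of PLTP on the other strand, which held 7376 counts against 9316 for CTSA over the 6 libraries. Whether counting used strand is not given in the sources used here, so the CTSA values are uncertain.

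Enzymes and cofactors for lipid-linked substrates had log2 fold changes above 0 in 3 of 4 genes, with a median of 0.11. PSAP, the precursor of the saposins that present sphingolipids to their hydrolases, was at 552, 719 and 764 CPM with FBS and 720.3, 895 and 554 CPM in starved libraries. It was the most abundant member per length at 211 FPKM. Its groups overlapped, with starved replicate 2 above all FBS libraries (log2 fold change 0.09, SE 0.32; edgeR adjusted p = 0.947). SMPD1, acid sphingomyelinase, was at 0.13 and PPT1, which removes palmitate from proteins, at 0.13 on the log2 scale. PPT1 shares exonic sequence with CAP1 on the other strand, so its counts are uncertain in the same way. ASAH1, acid ceramidase, had the lowest estimate of the 4, with means of 8.19 ± 2.29 CPM with FBS and 4.75 ± 1.36 CPM starved and a log2 fold change of -0.78 (SE 0.42; edgeR adjusted p = 0.54).

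Glycosidases, which cut sugars from glycogen, glycolipids and glycosaminoglycans, were above 0 for 5 of 7 genes, with a median log2 fold change of 0.32. GAA, which breaks down glycogen, was at 41, 67 and 65.9 CPM with FBS and 117, 85 and 65.2 CPM in starved libraries. The groups overlapped by the lowest starved library, replicate 3, and the log2 fold change was 0.62 (SE 0.31; edgeR adjusted p = 0.507). GUSB, beta-glucuronidase, was at 60.6, 72.7 and 69.9 CPM with FBS and 97.3, 98.8 and 83.1 CPM in starved libraries. All its starved values were above all FBS values, with means of 93.1 ± 8.63 starved and 67.7 ± 6.33 CPM with FBS, or 0.46 on the log2 scale (SE 0.27; edgeR adjusted p = 0.586). GLA, alpha-galactosidase A, was at 43.6, 36.9 and 39.7 CPM with FBS and 36, 27.4 and 22.7 CPM in starved libraries. All its starved values were below all FBS values, and the difference from FBS replicate 2 to starved replicate 1 was small (log2 fold change -0.48, SE 0.29; edgeR adjusted p = 0.591). NEU1, the sialidase, was at 0.35, NAGLU, an enzyme of heparan sulfate breakdown, at 0.32, GLB1, beta-galactosidase, at 0.15 and HEXA, the alpha subunit of hexosaminidase A, at -0.01 on the log2 scale.

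The 5 membrane proteins had 2 log2 fold changes above 0 and 3 below, with a median of -0.03. LAMP1, a heavily glycosylated protein of the limiting membrane, was at 236, 299 and 317 CPM with FBS and 391, 376 and 267 CPM in starved libraries. Starved replicates 1 and 2 were above all FBS libraries and replicate 3 was within their range, and the log2 fold change was 0.28 (SE 0.30; edgeR adjusted p = 0.8). LAMP2, its relative with a role in chaperone-mediated autophagy, was at 44.1, 36.1 and 39.9 CPM with FBS and 31.4, 33.6 and 52.7 CPM in starved libraries. Here replicate 3 was the highest of the starved libraries, in contrast with LAMP1, and the log2 fold change was -0.03 (SE 0.30). The GC content of LAMP2 was 39.9% and that of LAMP1 54.2%, and with the GC and length correction LAMP2 moved to 0.45.

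CLCN7, the chloride-proton exchanger of the lysosome, was at 65.7, 94.1 and 99.5 CPM with FBS and 174, 101 and 124 CPM in starved libraries. The starved libraries were all higher, but starved replicate 2 was barely above FBS replicate 3, and the log2 fold change was 0.62 (SE 0.30; edgeR adjusted p = 0.497). MCOLN1, the calcium channel TRPML1, was at 27.9, 36.2 and 37.8 CPM with FBS and 35.3, 26 and 19.2 CPM in starved libraries, with a log2 fold change of -0.34 (SE 0.31; edgeR adjusted p = 0.758). Its groups overlapped through starved replicate 1. Exons of MCOLN1 overlap those of PNPLA6 on the same strand, which held 29042 counts against 3171, so reads at the overlap could be assigned to either gene. SCARB2, the receptor that carries glucocerebrosidase to lysosomes, was at -0.19 on the log2 scale.

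The 4 subunits of the V0 sector had log2 fold changes from -0.97 to 0.70, with 2 on each side of 0. ATP6V0B (ENSG00000117410, chr1:43974487-43978295 in GRCh38), a proteolipid of the proton-carrying ring, was at 222, 229.9 and 251 CPM with FBS and at 171, 118 and 69 CPM in starved libraries. Every starved library was below every FBS library, and the starved libraries were spread over a wide range with replicate 3 the lowest. The mean was 234 ± 14.8 CPM with FBS and 119.5 ± 51.3 CPM starved, a level 1.96-fold lower in the fit (log2 fold change -0.97, SE 0.33; 95% interval -1.67 to -0.27; edgeR adjusted p = 0.315). When each library was corrected for GC content and length, the value was -1.12 on the log2 scale and the gene passed (edgeR adjusted p = 0.0184, among 0.784% of the genes tested), as it did with a replicate block added (among 0.966%). Leaving out serum-starved replicate 3 moved it to -0.70 and leaving out serum-starved replicate 1 to -1.31, and it did not pass in either fit.

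ATP6V0A1, the subunit that forms the proton half-channels, was at 40.04, 44.4 and 64.6 CPM with FBS and 95.4, 55.9 and 90.6 CPM in starved libraries. Starved replicate 2 lay within the FBS range, and the log2 fold change was 0.70 (SE 0.31; 95% interval 0.05 to 1.35; edgeR adjusted p = 0.441). ATP6V0D1, which couples the ring to the central stalk, was at 228, 322 and 377 CPM with FBS and 493, 302 and 214 CPM in starved libraries. The highest and the lowest of its 6 values were both in starved libraries, and the log2 fold change was 0.12 (SE 0.34). ATP6V0E1, a small membrane subunit, was at -0.24 on the log2 scale. The accessory protein ATP6AP1, which takes part in pump assembly, was at 114, 158 and 160.4 CPM with FBS and 207, 179.6 and 125 CPM in starved libraries, with a log2 fold change of 0.24 (SE 0.30).

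**Figure D3:**
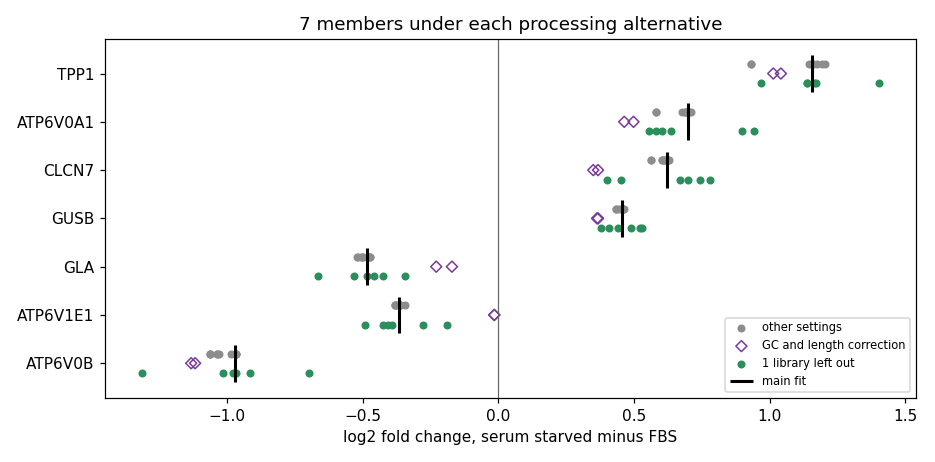
Log2 fold change (serum starved minus FBS) of the 6 members whose groups do not overlap and of ATP6V0A1 in the edgeR fit (black bar), with 1 library left out (green), with a GC and length correction (open diamonds) and under the other settings (grey). TPP1 stays above 0 and ATP6V0B below 0 in every fit shown, and ATP6V1E1 lies at about 0 with the GC and length correction.

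The V1 sector, which hydrolyses ATP, was below 0 for 4 of its 6 subunits, with a median log2 fold change of -0.32. The median was -0.52 without serum-starved replicate 3, with 0 of the 6 above 0, and -0.17 without serum-starved replicate 1. ATP6V1A, the catalytic subunit, was at 25.1, 19.2 and 17.4 CPM with FBS and 7.75, 14.3 and 21.3 CPM in starved libraries. The lowest of the 6 was starved replicate 1, the groups overlapped, and the log2 fold change was -0.51 (SE 0.37; edgeR adjusted p = 0.69). ATP6V1E1, of the peripheral stalks, was at 73.2, 60.1 and 61.7 CPM with FBS and 38.5, 54.1 and 58.7 CPM in starved libraries. All starved values were below all FBS values, the nearest pair being starved replicate 3 and FBS replicate 2, with a log2 fold change of -0.36 (SE 0.28; edgeR adjusted p = 0.715). ATP6V1H, a regulatory subunit, was at 38.6, 34.3 and 34.5 CPM with FBS and 22.4, 41.2 and 45.1 CPM in starved libraries. The starved values lay on both sides of the FBS values, and the log2 fold change was 0.02 (SE 0.31). ATP6V1B2, the partner of the catalytic subunit, was at -0.28, ATP6V1C1, which links the sectors, at -0.40 and ATP6V1D, of the central rotor, at 0.04 on the log2 scale. Exons of ATP6V1D overlap those of EIF2S1 on the other strand, so its counts are uncertain.

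The V1 genes had a lower GC content than the other members, with a median of 43.4% against 54.7% for the hydrolases and 53.0% for all 36, and their values moved with the libraries' GC trends. Their median deviation from each gene's mean over the 6 libraries was 0.41 on the log2 scale in FBS replicate 1 and -0.60 in starved replicate 1, where all 6 lay below 0. In starved replicate 3 it was 0.29. The hydrolases had the opposite order, with -0.26 in FBS replicate 1, 0.29 in starved replicate 1 and -0.36 in starved replicate 3. Across the 36 genes, which are not independent and share each library, the deviation and the GC content had a Spearman rho of -0.57, 0.40 and -0.20 in FBS replicates 1, 2 and 3 and of 0.69, 0.39 and -0.56 in the starved replicates. With the GC and length correction the V1 median was 0.10 in place of -0.32, and 3 of the 6 subunits were above 0. The median of the 17 hydrolases was 0.05 with that correction and 0.09 without it. It changed sign when 1 library was left out, to -0.12 when this was serum-starved replicate 1, -0.07 for serum-starved replicate 2 and -0.04 for FBS replicate 1, and was 0.25 when serum-starved replicate 3 was left out.

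**Figure D4:**
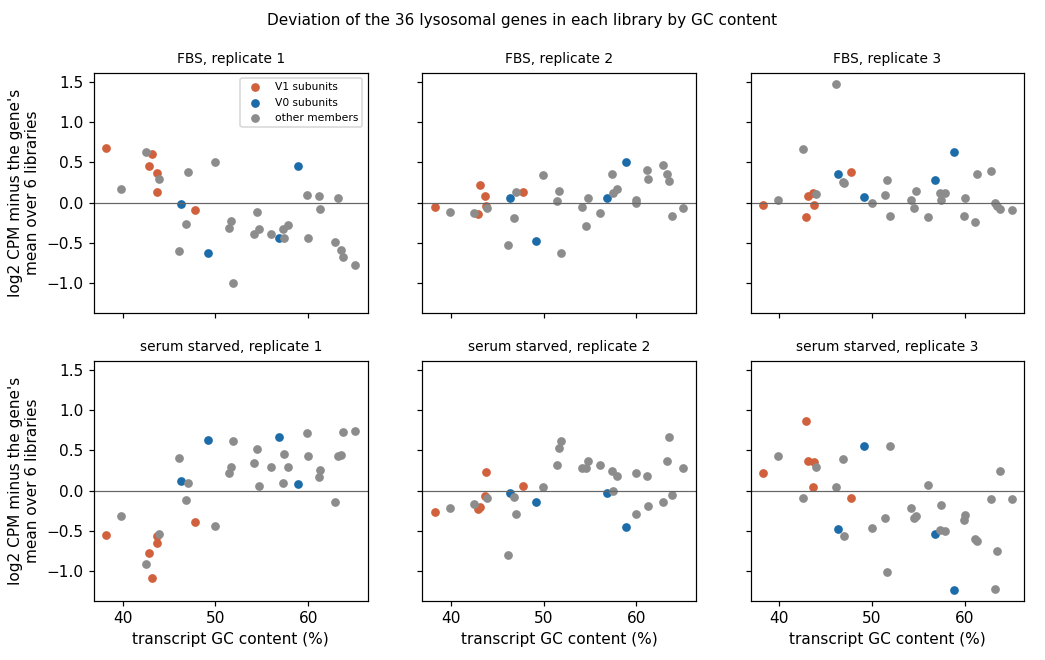
Deviation of each of the 36 genes from its mean log2 CPM over the 6 libraries (vertical axis) against transcript GC content in percent (horizontal axis), 1 panel per library, with V1 subunits in orange and V0 subunits in blue. The V1 subunits lie mostly above 0 in FBS replicate 1 and starved replicate 3 and all below 0 in starved replicate 1.

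Levels per length spanned nearly 3 orders of magnitude. After PSAP came CTSZ with a mean of 119 FPKM over the 6 libraries, ATP6V0E1 with 84.9, LAMP1 with 53.4 and ATP6V0B with 48.8. The ranges of CTSZ (76.6 to 156 FPKM) and ATP6V0E1 (59.96 to 107) overlapped over the 6 libraries. Those of LAMP1 (39.5 to 66.7) and ATP6V0B (19 to 69.4) overlapped as well. These ranges pool both groups, and the order of the LAMP1 and ATP6V0B means differed between the groups. With FBS, LAMP1 averaged 48.3 ± 7.74 FPKM and ATP6V0B 64.6 ± 4.56. In starved libraries LAMP1 averaged 58.5 ± 11.6 FPKM and ATP6V0B 33 ± 14.3. The pump's sectors overlapped in level. The V0 subunits ran from 5.8 (ATP6V0A1) to 84.9 FPKM (ATP6V0E1) and the V1 subunits from 2.59 (ATP6V1C1) to 17.5 FPKM (ATP6V1E1). At the low end were TFEB, ASAH1 with 0.41 FPKM and MITF. The order depends on the lengths listed per gene, which were 15378 bases for ASAH1 and 5648 for TFEB. In mean CPM, ASAH1 was above TFEB in both groups. Whether the listed lengths are those of the transcripts present was not tested.

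The rest of the lysosomal system was read from 5 further lists, none of which had a gene that passed the edgeR test. These lists were chosen by function, with earlier results of these data known, so their shares are descriptions. Of 14 other subunits and accessory proteins of the proton pump, 9 were tested, 5 of them above 0, with a median log2 fold change of 0.02 and 0 genes at an unadjusted p under 0.05 (against 10.4% of all genes). Starved libraries were all lower than FBS libraries for 2 of the 9 (22.2%, against 7.65%) and all higher for 0. The isoforms ATP6V0D2, ATP6V1B1 and ATP6V1G3, known from osteoclasts, kidney and other specialised tissues, had 0 counts in all 6 libraries, which allows up to 0.132 to 0.204 CPM per library (3 counts). ATP6V0C, the main proteolipid of the ring, was listed at 4.74 ± 0.852 CPM with FBS and 1.83 ± 1.66 CPM starved (-1.38 on the log2 scale; edgeR adjusted p = 0.505). That gene has near-identical pseudogene copies, and how the authors' counting treated shared reads is not given in the sources used here, so its level is uncertain. TCIRG1, the a3 form of the proton channel subunit, was at 89.1 ± 18.3 and 137 ± 54.2 CPM (0.62; edgeR adjusted p = 0.523).

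Of 41 other hydrolases and their activators, 35 were tested, and 28 of these (80.0%) had a log2 fold change above 0, against 48.5% of all genes tested. Their median was 0.37. Starved libraries were all higher than FBS libraries for 10 (28.6%), against 10% of all genes tested, and all lower for 2. At an unadjusted p under 0.05 there were 4 higher and 1 lower (14.3% together, against 10.4%). FUCA1, alpha-fucosidase, was at 9.8 ± 1.54 CPM with FBS and 18.1 ± 0.961 CPM starved, a log2 fold change of 0.88 (SE 0.33; edgeR adjusted p = 0.357). Without FBS replicate 1 the list's median was 0.18, and with the GC and length correction it was 0.32.

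Of the other lysosomal membrane proteins and transporters, 33 of 36 were tested and 23 (69.7%, against 48.5% of all genes tested) were above 0, with a median log2 fold change of 0.28. Starved libraries were all higher than FBS libraries for 7 (21.2%, against 10% of all genes) and all lower for 0 (against 7.65%). At an unadjusted p under 0.05 there were 5 higher and 0 lower (15.2% together, against 10.4%). HGSNAT, the acetyltransferase of heparan sulfate breakdown, was at 17.9 ± 1.93 CPM with FBS and 39.4 ± 11.4 CPM starved (1.14 on the log2 scale; SE 0.31; edgeR adjusted p = 0.197). NPC1, which exports cholesterol from lysosomes, was at 29.6 ± 2.83 and 59.7 ± 8.27 CPM (1.01 on the log2 scale; SE 0.28; edgeR adjusted p = 0.201). Both passed in DESeq2 (adjusted p = 0.0314 for HGSNAT and 0.0271 for NPC1, among 1.48% of the genes it tested). Without FBS replicate 1 the list's median was 0.15, and with the GC and length correction it was 0.19.

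In the route that delivers enzymes by mannose 6-phosphate, all 25 listed genes were tested, 17 were above 0 and the median log2 fold change was 0.13. Starved libraries were all higher than FBS libraries for 5 (20%, against 10% of all genes) and all lower for 1 (4.0%, against 7.65%). At an unadjusted p under 0.05 there was 1 gene, IGF2R (4.0%, against 10.4%). IGF2R, the large mannose 6-phosphate receptor, was at 63.5 ± 3.78 CPM with FBS and 105 ± 27.2 CPM starved (0.73; edgeR adjusted p = 0.388), and VPS39, of the tethering complex for late endosomes, was at 0.53 (edgeR adjusted p = 0.547). A further list held 28 genes tied to the control of TFEB-family factors, at the lysosome surface or elsewhere. It included TFEC, itself a factor of the family, and XPO1 and ZKSCAN3. Of the 28, 27 were tested and 15 were above 0, with a median of 0.06. At an unadjusted p under 0.05 there was 1 gene, FNIP1 (3.7%, against 10.4%). Starved libraries were all higher for 2 of the 27 (7.41%, against 10%) and all lower for 2 (7.41%, against 7.65%). FNIP1, a partner of folliculin, was at 5.04 ± 1.6 CPM with FBS and 2.56 ± 0.495 CPM starved (-0.98; edgeR adjusted p = 0.471). MTOR, the kinase of mTORC1, was at 61.6 ± 3.61 and 94.3 ± 30.2 CPM (0.61; edgeR adjusted p = 0.486). TFEC, the remaining factor of the family, had 0 counts in every library.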

How the data were processed

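RNA of 6 Ovcar8 libraries was analysed, 3 with 5% FBS and 3 serum starved, grouped by the treatment in the labels. The deposited table gives raw counts per gene and library made by the authors, and FPKM values made by the authors, per the file headers. STAR 2.6.1, DESeq2 and the build GRCh38 were used, per the submitters' processing notes, and which tool counted, with which strand setting, is not given in the sources used here. In each library the deposited FPKM was 0.838 to 1.15 times the count divided by length and library total (scaled to the usual FPKM units), a constant factor for all genes, so it carries a scaling between libraries. All 58735 gene positions matched GENCODE 29, and no column of another sample was present.

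Genes were kept by filterByExpr in edgeR 4.0.16 (minimum count 10, minimum total 15), which left 13772, scaled by TMM and tested in R 4.3.3 with glmQLFit (robust) and glmQLFTest, starved minus FBS, with Benjamini-Hochberg adjustment over all 13772 and a threshold of 0.05. The biological coefficient of variation was 36.3%. An SE was computed as the estimate over the root of its F value. Limits for a count of 0 cover counting error only, since reads are not independent molecules. Alternatives were other scalings and filters, DESeq2 1.42.0, limma 3.58.1 (voom, or log2 of FPKM plus 1 or 0.1, mean FPKM of at least 0.5 or no filter), a replicate block, each library left out, and splines of GC content and length (5 degrees of freedom each) entered as offsets per library. Only the main edgeR fit was run on simulated counts, drawn independently and without GC or length trends. That run therefore does not show how the tests behave under the trends of these libraries.

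Members, lists, alternatives and the naming rule were chosen with earlier results of these data known. The rule named all 36 members and gave library values for the 3 factors, for 12 members of several roles, for those that passed or did not overlap between the groups, and for the 5 of smallest p, plus up to 2 genes of smallest p per list. Some genes that this rule gave from the lists are not reported here. Same-numbered libraries had correlations of their deviations of -0.238, 0.087 and -0.07, so the numbers were not taken as pairs. Promoter windows came from RefSeq (GRCh38.p14), which held 25 members.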

Additional observations from a re-analysis of the deposited data

How the results depend on the processing

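Among the 36 genes, 0 passed in the fits with other scalings, filters, limma or the replicate block alone, and 1 passed in DESeq2 (TPP1), with the GC and length correction (ATP6V0B) and with that correction and the replicate block together (ATP6V0B). With 1 library left out the count was 0 to 1, the 1 being TPP1 without serum-starved replicate 3. The number of all genes that passed, 39 in edgeR, was 25 with total counts only, 127 without a low-count filter, 160 in DESeq2, 108 with the GC and length correction and 133 with that correction and the replicate block. On log2(FPKM + 1) it was 22, on log2(FPKM + 0.1) 19 and on log2(FPKM + 1) without a filter 0, all in limma, where 1534 of 23463 genes in the last fit had an unadjusted p under 0.05. With 1 library left out it ranged from 4 (without FBS replicate 1) to 257 (without serum-starved replicate 3). In the replicate block alone 43 genes and 0 members passed, and not every library correlated best with its own number. In the list of other hydrolases 1 gene passed with the GC and length correction, with and without the block, and in that of other membrane proteins 2 passed in DESeq2.

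Of 680 single-gene values under the alternatives, 619 kept direction and side of the threshold, 4 gained the call and 57 changed sign. Correcting for GC and length gave log2 fold changes of -0.17 for CTSA, 0.45 for LAMP2, -0.14 for ATP6V0D1, 0.15 for ATP6V0E1 and 0.22 for ATP6V1C1, and with the replicate block added -0.17, 0.45, -0.18, 0.14 and 0.22 in the same order. CTSA was at -0.012 with total counts only, -0.0010 without a low-count filter, -0.014 in voom, -0.014 with the replicate block, -0.012 on log2(FPKM + 1) with or without a filter and -0.015 on log2(FPKM + 0.1). LAMP2 was at 0.0068 with total counts only. ATP6V1D was at -0.075 in voom, -0.090 with the replicate block, -0.070 on log2(FPKM + 1) with or without a filter and -0.091 on log2(FPKM + 0.1). ATP6V1H was at -0.032 in voom, -0.040 with the replicate block, -0.032 on log2(FPKM + 1) with or without a filter and -0.044 on log2(FPKM + 0.1). With 1 library left out the ranges that crossed 0 were -0.86 to 0.56 for MITF, -0.13 to 0.22 for CTSA, -0.26 to 0.096 for CTSB, -0.36 to 0.25 for CTSD, -0.29 to 0.069 for CTSZ, -0.054 to 0.32 for PPT1, -0.29 to 0.32 for SMPD1, -0.096 to 0.25 for PSAP, -0.31 to 0.33 for HEXA, -0.30 to 0.13 for LAMP2, -0.41 to 0.018 for SCARB2, -0.25 to 0.36 for ATP6V0D1, -0.56 to 0.37 for ATP6V1D and -0.17 to 0.29 for ATP6V1H. The cause of these shifts was not tested. MITF and ASAH1 were below the FPKM filter, so 34 of the 36 entered those fits. The SE was 0.68 for MITF and 0.46 for TFEB, and the part of depth in it was not tested.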
